A study of Macaca mulatta with 10 samples.

Results

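The genes described here were 8 genes of the cytotoxic granule, namely the granzymes GZMA, GZMB, GZMK and GZMM, the pore-forming protein perforin (PRF1), granulysin (GNLY), NKG7 and cystatin F (CST7). CD8A and CD8B, which encode both chains of the CD8 coreceptor, were set beside them as a check on RNA from CD8 cells. The 10 genes were chosen by name from a table of 26484 genes, with earlier results of these data known. They were followed in RNA-seq libraries of flow-sorted type 1 regulatory T (Tr1) cells, gated as CD4+CD49b+LAG3+, from 10 rhesus macaques with streptozotocin-induced diabetes and an islet allograft in the liver. Both cohorts had received the same transient immunosuppression with the anti-CD40 antibody 2C10R4, rapamycin, a soluble TNF receptor and an antibody to the IL-6 receptor. Cohort B (n = 5) had no further treatment and Cohort C (n = 5) was also infused with apoptotic donor leukocytes (ADLs). Mononuclear cells from blood had been frozen, thawed and rested overnight before the sort. The labels place sampling at the 365-day end point in Cohort C and at rejection in Cohort B, so that treatment and the time and graft state at sampling cannot be told apart. For monkeys 13EP12 and 13EP8 of Cohort B the labels and the paper differ, since the paper lists these grafts as free of rejection, and the graft state at their sampling is uncertain. Individual ages were not in the sources used here.

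Cytotoxic lymphocytes store granzymes in granules on a serglycin scaffold and release them towards a target cell, where perforin opens the membrane and the granzymes, which are serine proteases, cleave substrates that lead to cell death. These genes are best known from CD8 T cells and natural killer (NK) cells. CD4 cells can carry them too, and Tr1 cells are known for IL-10 and for killing myeloid antigen-presenting cells through granzyme B and perforin. Granzyme B is also made by plasmacytoid dendritic cells, which lack perforin.

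The libraries differed widely in depth. Total counts ranged from 6076 to 1392157 in Cohort B and from 66485 to 5895609 in Cohort C, with 465 to 10225 and 891 to 15068 genes detected. At least 8000 genes were detected in 4 libraries, from monkeys 13EP12 and 13EP8 of Cohort B and 13EP5 and 15CP1 of Cohort C, and 465 to 4848 in the other 6. A count of 0 allowed a level of up to 0.509 CPM (counts scaled to a library of 1000000 counts, with 3 counts as the limit) in the deepest library and 494 CPM in the shallowest. CD4, the gene of the sort marker, had 338 and 94 counts in 13EP12 and 13EP8, 772 and 766 in 13EP5 and 15CP1, 13 in 15CP6, 19 in 14HP24 and none in the other 4 libraries, and LAG3 was counted in 3 libraries only. Reads of these macaque samples had been aligned to the human genome, and intervals given below cover counting error only.

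GZMB was the granule gene with the most counts, 1324 in all, and 74.8% of them came from a single Cohort C monkey. Granzyme B cleaves after aspartate and activates caspases. In Cohort B it had 90 counts in 13EP12, 40 in 13EP8 and none in 14HP26, 14HP31 and 15CP6. In Cohort C it had 990 counts in 13EP5, 195 in 15CP1, 9 in 15CP4 and none in 14HP33 and 14HP24. The cohorts overlapped, with monkeys at 0 in both. As CPM, the level was 296 (95% exact binomial interval 278–315) in 13EP5, 135 (61.9–257) in 15CP4, 75.6 (60.8–92.9) in 13EP12, 33.1 (28.6–38.1) in 15CP1 and 28.7 (20.5–39.1) in 13EP8. Along this order 15CP4 could not be separated from 13EP12, nor 15CP1 from 13EP8, by their counting intervals. In 13EP5 GZMB ranked 649 among all genes by count, against 2548 in 13EP12, 4421 in 15CP1 and 4658 in 13EP8. It ranked 551 in 15CP4, on 9 counts in a library with only 891 genes detected.

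**Figure D1:**
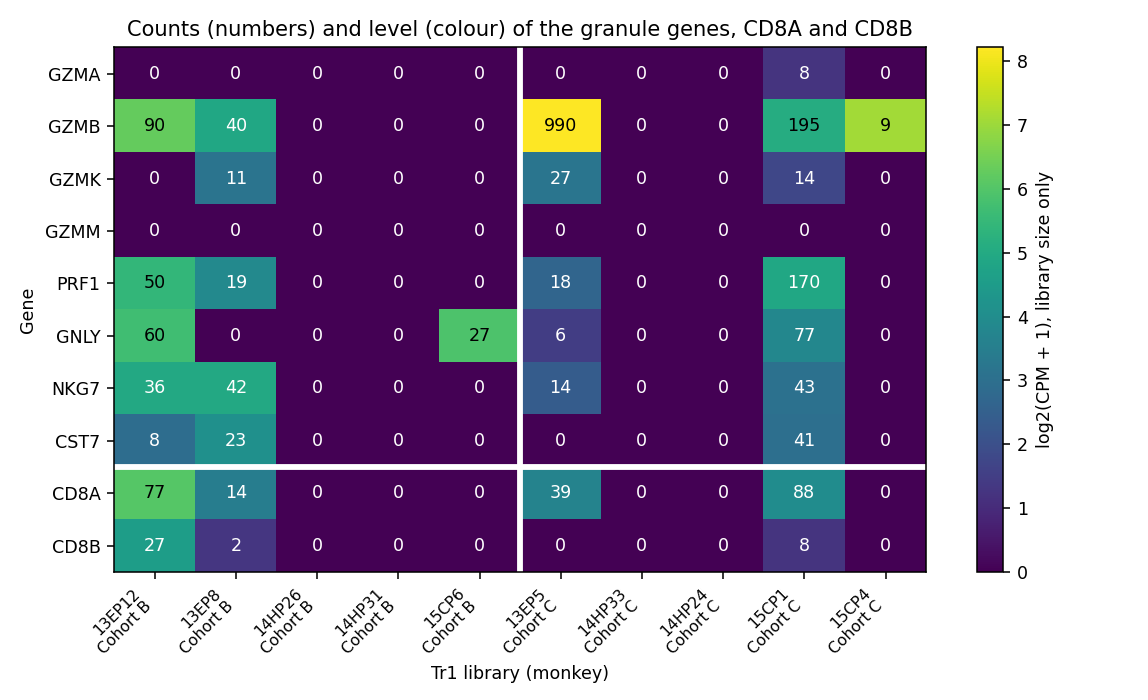
Counts of the 10 genes (rows) in the 10 Tr1 libraries (columns), with the number in each cell the count and the colour the level as log2(CPM + 1) by library size. GZMB in 13EP5 reached 990 counts, and outside 4 libraries the counts were the 27 of GNLY in 15CP6 and the 9 of GZMB in 15CP4.

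The other granzymes were sparse. GZMK, a trypsin-like granzyme of memory cells, had 11 counts in 13EP8, 27 in 13EP5 and 14 in 15CP1, or 7.90, 8.08 and 2.37 CPM, and none in the other 7 libraries, 13EP12 included. GZMA, a trypsin-like granzyme encoded next to GZMK in the macaque genome with 1 non-coding gene between them, had 8 counts in 15CP1 and none elsewhere. GZMM, which cleaves after methionine or leucine, was at 0 in every library, which allows up to 0.509 CPM in 15CP1. GZMH, a close paralog of GZMB with no gene between them in macaque RefSeq (T2T-MMU8v2.0), was not among the chosen genes and how reads matching both were counted is not given in the sources used here. GZMH had 119 counts in 13EP12, 79 in 13EP8, 211 in 13EP5 and 179 in 15CP1. GZMB thus had fewer counts than GZMH in both Cohort B monkeys, about as many in 15CP1 and many more in 13EP5.

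PRF1 and GNLY act on membranes: perforin forms the pore and granulysin, a saposin-like protein, lyses microbial membranes. PRF1 had 50 counts in 13EP12 and 19 in 13EP8 of Cohort B, 18 in 13EP5 and 170 in 15CP1 of Cohort C, and none in the other 6 libraries. The levels were 42.0, 13.6, 5.39 and 28.8 CPM, so that 13EP5, highest of all for GZMB, was lowest of these 4 for PRF1. The GZMB count per 10 PRF1 counts was 18.0 in 13EP12, 21.1 in 13EP8 and 11.5 in 15CP1, but 550 in 13EP5. GNLY had 60 counts in 13EP12 and 27 in 15CP6 of Cohort B, and 6 in 13EP5 and 77 in 15CP1 of Cohort C. The 27 counts of 15CP6, at 59.3 CPM (39.1–86.2), stood beside 50.4 CPM (38.4–64.8) in 13EP12 and were the only granule counts of that library. GNLY was at 0 in 13EP8, which allows up to 2.15 CPM, although that monkey had counts on 5 of the other granule genes.

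NKG7, a granule membrane protein needed for exocytosis, was counted in the 4 deeper libraries. It had 36 counts in 13EP12, 42 in 13EP8, 14 in 13EP5 and 43 in 15CP1, and none elsewhere. The level was 30.2 CPM in both 13EP12 and 13EP8, and 4.19 and 7.29 CPM in 13EP5 and 15CP1. CST7, which inhibits the cathepsins that activate granzymes, had 8 counts in 13EP12, 23 in 13EP8 and 41 in 15CP1. It was at 0 in 13EP5, which allows up to 0.898 CPM in a library of 3341503 counts.

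Summed over the 8 granule genes, Cohort B had 244 counts in 13EP12, 135 in 13EP8, 27 in 15CP6 and none in 14HP26 and 14HP31. Cohort C had 1055 in 13EP5, 548 in 15CP1, 9 in 15CP4 and none in 14HP33 and 14HP24. These sums were at most 0.0316% of a library. GZMB made up 36.9% (30.8–43.3) of them in 13EP12, 29.6% (22.1–38.1) in 13EP8 and 35.6% (31.6–39.8) in 15CP1, monkeys of both cohorts with overlapping intervals, and 93.8% (92.2–95.2) in 13EP5. CD3 counts are given here as the sum of CD3D, CD3E, CD3G and CD247. Without GZMB, granule counts per 100 CD3 counts were 20.7 in 13EP12, 14.2 in 13EP8, 7.56 in 15CP6, 3.98 in 13EP5 and 10.8 in 15CP1. With GZMB they were 32.8, 20.2, 7.56, 64.5 and 16.8. The 13EP5 library thus went from the lowest to the highest of the 5 on the count of 1 gene.

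**Figure D2:**
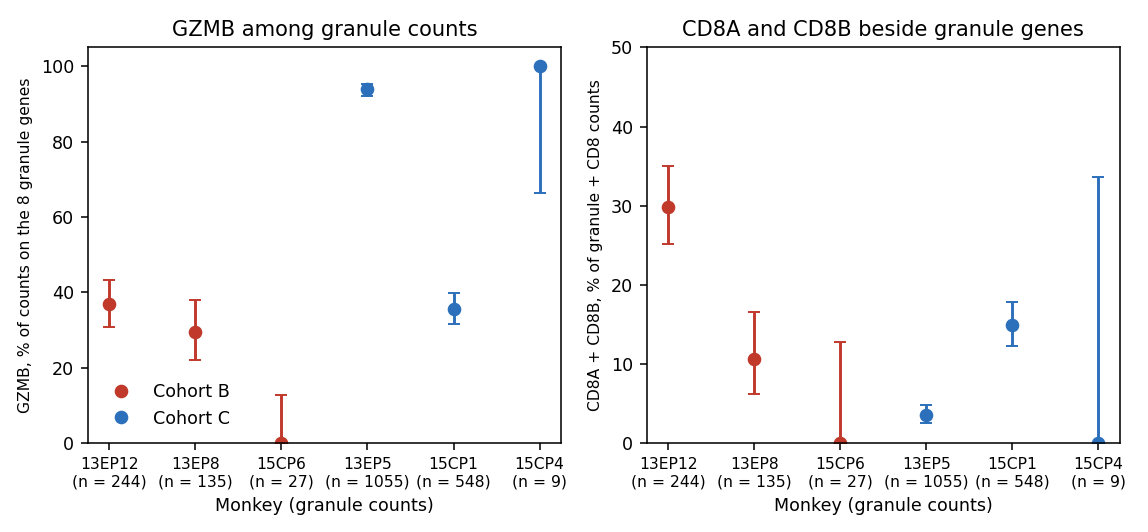
Left, GZMB as a percentage of counts on the 8 granule genes, and right, CD8A and CD8B as a percentage of granule plus CD8 counts, in the 6 libraries with over 3 granule counts (points, with 95% exact binomial intervals as bars). In 13EP5 GZMB took 93.8% of the granule counts and the CD8 share was 3.56%.

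CD8A and CD8B were detected in the CD4+ sort, but not in proportion to the granule genes. CD8A had 77 counts in 13EP12 and 14 in 13EP8 of Cohort B, and 39 in 13EP5 and 88 in 15CP1 of Cohort C. CD8B had 27, 2, 0 and 8 counts in the same monkeys, and both genes were at 0 in the other 6 libraries. Of the counts on granule and CD8 genes together, the CD8 pair took 29.9% (25.1–35.0) in 13EP12, 10.6% (6.18–16.6) in 13EP8, 14.9% (12.2–17.9) in 15CP1 and 3.56% (2.55–4.84) in 13EP5. Per 100 CD3 counts, the CD8 pair had 14.0 counts in 13EP12 against 2.40, 2.39 and 2.94 in 13EP8, 13EP5 and 15CP1. The granule counts of 13EP8, 13EP5 and 15CP1 were 20.2, 64.5 and 16.8 per 100 CD3 counts, at nearly the same CD8 level. Without GZMB they were 14.2, 3.98 and 10.8, and 13EP12, highest for the CD8 pair, was also highest here at 20.7. The part of CD8 cells in the granule counts was not tested. In 15CP6 and 15CP4 granule counts stood beside no CD8 count at all, which with 27 and 9 granule counts still allows a CD8 share of up to 12.8% and 33.6%. In bulk samples, fewer cells of a type and less RNA per cell cannot be told apart.

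The levels of other cell types were read beside these values. The NK cell list (NCAM1, NCR1, NCR3, KLRF1, KLRC1, FCGR3A, TYROBP and FCER1G) summed to 0 to 162 CPM in Cohort B and 0 to 292 CPM in Cohort C. Its defining receptors NCR1 and NCR3 were at 0 in every library, KLRF1 was counted only in 15CP1 (63 counts), NCAM1 had 136 counts in 15CP1, 48 in 13EP5 and 18 in 13EP8, FCGR3A had 68 in 15CP1 and 17 in 13EP12, and most counts fell on TYROBP and FCER1G, which monocytes also express, except in 15CP6, where NCAM1 had 41 of 62 counts. KLRC1 had 16 counts in 13EP8 and 9 in 15CP1. Monocyte genes, 8 of 8 detected, reached 1264 CPM in Cohort B and 1118 CPM in Cohort C. The part of NK cells and monocytes in the granule counts was not tested.

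Genes of plasmacytoid dendritic cells were high in the library with the highest GZMB. This list of 9 genes was drawn up after the counts of 13EP5 had been seen, and 8 of its 9 genes had a count in some library. Its summed level was 3068 CPM in 13EP5 and 4211 CPM in 15CP4, where all counts fell on TCF4 and IRF8, against 213 CPM in 15CP1, 14.6 in 14HP24 and 0 in 14HP33. In Cohort B it was 232 CPM in 13EP12, 175 in 13EP8, 514 in 15CP6, 658 in 14HP31, from 4 counts, and 0 in 14HP26. These levels were scaled by the library total, and the sum of 15CP4 rested on 280 counts. The TMM factor, by which a library total is multiplied, was 2.42 in 15CP4 and 4.17 in 14HP31, against 0.963 in 13EP5. The order of 15CP4 and 13EP5 therefore depends on the scaling. In 13EP5 the counts lay on the transcription factors IRF8 (5717) and TCF4 (2761), on JCHAIN (1447), the joining chain of secreted antibody, on PLD4 (166) and on SPIB (126). The surface markers that define the cell had few or no counts: CLEC4C had 17 counts in 13EP5 only, LILRA4 had 32 in 15CP1 and none in 13EP5, and IL3RA was at 0 in every library. How reads matching several places were counted is not given in the sources used here, so a count of 0 does not show that a marker was absent. Cells of the B lineage also use IRF8, TCF4 and JCHAIN. The part of these cells in the GZMB level was not tested.

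**Figure D3:**
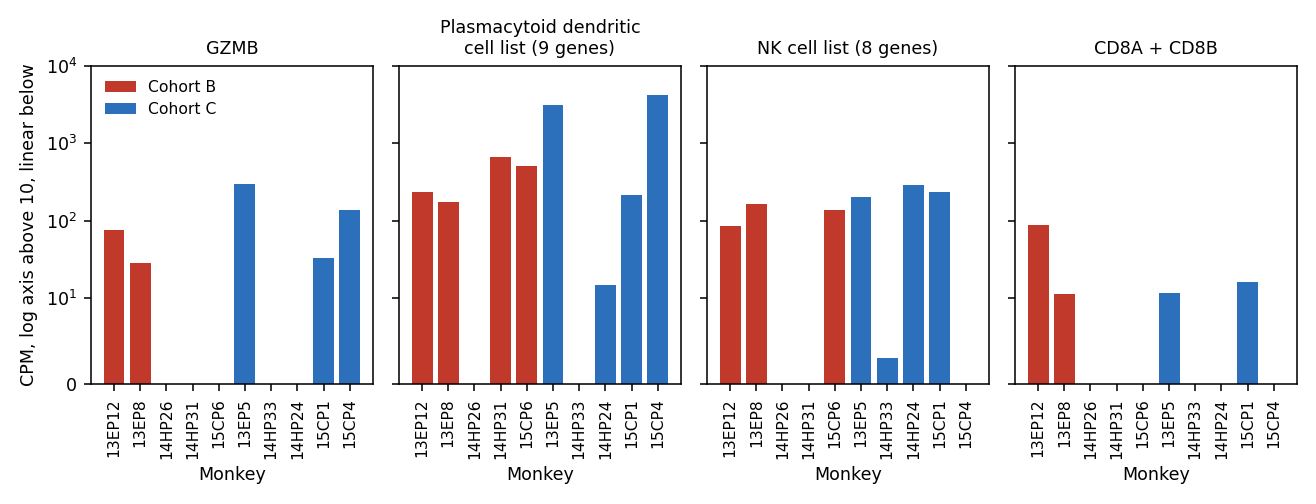
Level per library, in CPM (log axis above 10, linear below), of GZMB, of the summed plasmacytoid dendritic cell list, of the summed NK cell list and of CD8A plus CD8B. The library of 13EP5 was highest for GZMB (296 CPM) and stood at 3068 CPM for the plasmacytoid dendritic cell list. The 135 CPM of GZMB in 15CP4 rested on 9 counts and was 56.0 CPM after TMM scaling, against 77.9 in 13EP12.

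Whether the zeros of the 6 shallower libraries carried information depended on the gene. Over 7 genes (GZMA, GZMB, GZMK, PRF1, GNLY, NKG7 and CST7) 40 of the 42 values in these libraries were 0. Set at the median level of the 4 deeper libraries and at each library's effective size, 13 of these 40 would have been above 3 counts. In 15CP6, the deepest of the 3 sparse Cohort B libraries, 26.8 counts of GZMB, 11.3 of PRF1, 9.07 of NKG7 and 6.87 of CD8A would have been present at that level, and each was 0, while GNLY had 27 counts against 4.03 and CD3E had 173 against 108. The other T cell genes of 15CP6 were uneven: CD247 had 143 counts and CD3D 41, CD4 had 13 against 90.3 at that level, and CD2, CD3G, CD5 and LCK were at 0. A GZMB count of 0 there allows up to 6.59 CPM. In 15CP4 of Cohort C the 9 GZMB counts matched the 9.49 of that level, and CD3D, CD3E and CD3G were all at 0. The other 4 shallow libraries had CD3 sums of 0 to 14 counts. At that level GZMB would have had 10.1 counts in 14HP26, 10.3 in 14HP24 and 4.16 in 14HP33, and each was 0. CD3E was below that level there too, with 0 counts against 40.8, 14 against 41.6 and 12 against 16.8. The granule zeros of these libraries were therefore not read further.

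**Figure D4:**
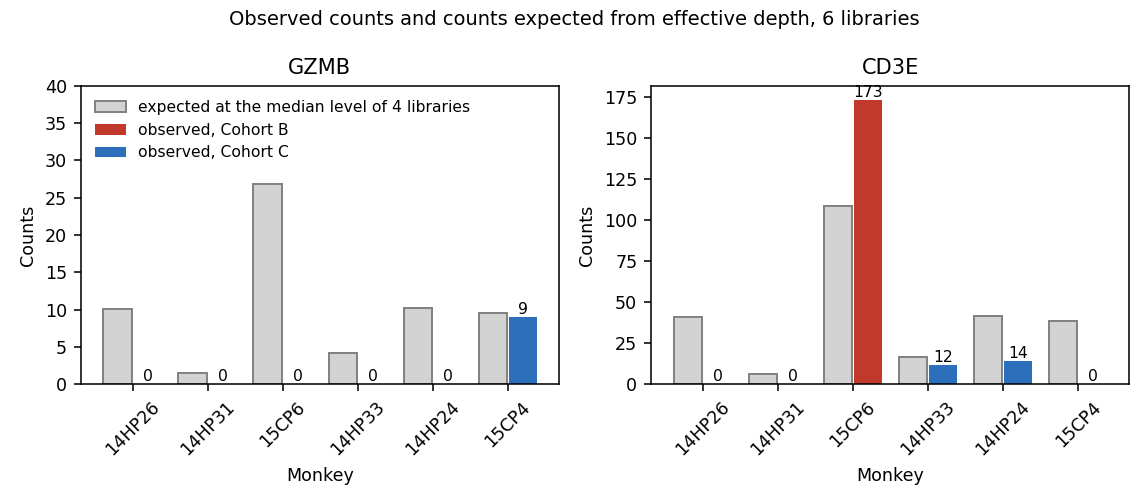
Observed counts of GZMB (left) and CD3E (right) in the 6 shallower libraries (coloured bars, with their counts) beside the counts expected at the median level of the 4 deeper libraries (grey bars). In 15CP6 GZMB had 0 counts where 26.8 would have been present, and CD3E had 173.

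The main comparison asked whether the granule genes differed between Tr1 cells of monkeys with and without ADL infusion. No member passed the test. GZMB was higher in Cohort C by 1.82 ± 2.09 on the log2 scale (SE; edgeR quasi-likelihood test, Benjamini-Hochberg adjusted p = 0.911), with a mean log2(CPM + 1) of 3.89 ± 3.72 in Cohort C and 2.26 ± 3.12 in Cohort B (SD, n = 5). GNLY was lower by −2.46 ± 2.16 (adjusted p = 0.740) and NKG7 by −2.06 ± 2.08 (adjusted p = 0.840). CST7 stood at −1.33 ± 1.87, PRF1 at −0.50 ± 2.03 and GZMK at 0.36 ± 1.72, with adjusted p from 0.978 to 1.0. CD8A stood at −1.28 ± 2.06 (adjusted p = 1.0) and CD8B at −3.15 ± 2.001 (adjusted p = 0.432). Each standard error was larger than or close to its difference, CD8B apart, and the smallest unadjusted p among the 8 was 0.115. GZMA and GZMM had under 10 counts over all libraries and were not tested.

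Of the 8 members tested, 0 were called at an adjusted p under 0.05, where 0% of all 14168 genes were called. At the limits of the study's methods, an unadjusted p under 0.01 and a change of 1.5-fold, 0 of 8 were called against a background of 6.43% of genes. At an unadjusted p under 0.05 it was 0 of 8 against 20.6%. At that limit DESeq2 also gave 0 of 8 against 2.51% of genes, limma-voom 0 of 8 against 2.58% and the edgeR exact test 0 of 8 against 9.34%. Of the 6 granule genes tested 2 were positive and 4 negative, with a median of −0.92, beside a median of 0.16 over all genes. That median moved to −0.10 when libraries were scaled by size alone. Relative to it, GZMB was 1.66 above with the TMM scaling and 2.05 above by library size, and GNLY was −2.61 and −2.70.

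A two-sided exact permutation test of log2(CPM + 1) over the 252 assignments of 5 and 5 libraries, whose smallest possible p is 0.00794, gave p = 0.524 for GZMB, 0.444 for GNLY, 0.683 for NKG7, 0.841 for PRF1, 0.722 for GZMK, CST7 and CD8B, and 1.0 for CD8A. All were 1.0 after adjustment over the 14168 genes, of which 34 (0.24%) had an unadjusted p under 0.05.

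Single libraries decided the sign of several differences, taken against 0. Without 13EP5 the GZMB difference was −0.16, and without 13EP12 PRF1 and CD8A turned to 0.83 and 0.86 and CD8B stood at −0.20. The median over all genes moved too, to −0.43 without 13EP5 and to 0.67 without 13EP12. GZMB lay above that median without 13EP5, and PRF1 and CD8A lay only slightly above it without 13EP12. GZMK ranged from −1.01 without 13EP5 to 4.86 without 13EP8 (unadjusted p = 0.0337, adjusted p = 0.187), since 13EP8 held all GZMK counts of Cohort B. Without 15CP1, which held all CST7 and CD8B counts of Cohort C, those genes stood at −5.09 and −5.11 (unadjusted p = 0.0463 and 0.0461, adjusted p = 0.270 for both). In the 4 deeper libraries alone, a choice made after the counts were seen, GZMB was higher in Cohort C by 1.59 (adjusted p = 0.800), and GNLY, NKG7 and CD8B were lower by −1.72, −2.42 and −3.99 (adjusted p = 0.863, 0.800 and 0.800). An index suffix in the labels marked 1 library of Cohort B and 2 of Cohort C. Among the 7 libraries without it GZMB stood at 1.98, GNLY at −3.87 and CST7 at −5.79 (adjusted p = 1.0, 0.729 and 0.415), and the 3 libraries with it were too few for a value of their own.

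**Figure D5:**
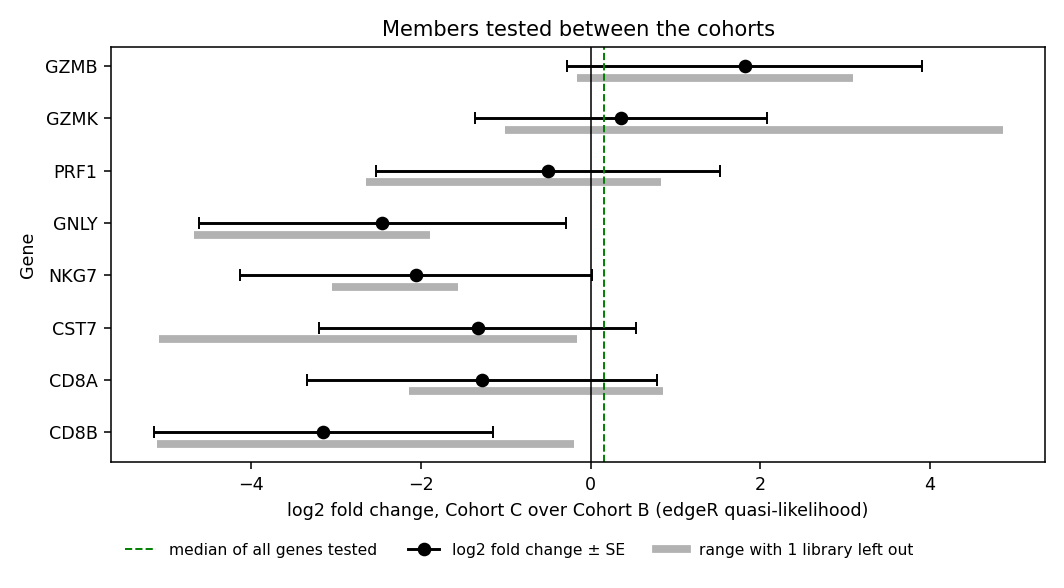
Log2 fold change of Cohort C over Cohort B for the 8 members tested (points, with the standard error as bars), the range over fits that each left out 1 of 10 libraries (grey) and the median of all genes tested (dashed). The bars of GZMB, GZMK, PRF1, NKG7, CST7 and CD8A cross 0, and for GZMB, GZMK, PRF1 and CD8A the grey range does too.

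The rest of the granule pathway was read from a list of 31 genes. Of these, 26 were tested with edgeR. At an adjusted p under 0.05, 0 were called against 0% of all genes tested. By the limits of the study 0 were called against 6.43% of genes, and 0 had an unadjusted p under 0.05 against 20.6%. Differences were positive for 16 and negative for 10, with a median of 0.33. Among cargo and processing genes SRGN, the serglycin scaffold, was counted in 8 libraries (2068 counts in 15CP1, 72 in 15CP4) and differed by 0.23 ± 1.91. CTSC, the cathepsin that activates granzymes, stood at 0.39 ± 2.05, and SERPINB9, the inhibitor of granzyme B, at −0.68 ± 2.04. Of the membrane genes LAMP1 stood at 0.41 and CD63 at −0.19.

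Among release genes, the SNARE protein STX11 showed the largest difference of the list, 3.48 ± 2.24 (edgeR adjusted p = 0.446). It had 2 counts in each of 13EP12 and 13EP8, 81 in 13EP5, 134 in 15CP1 and none elsewhere. RAB27A, UNC13D, STXBP2, LYST and AP3B1, which dock, prime or sort granules, lay between −0.68 and 0.81. Of the transcription factors TBX21 stood at 2.02 ± 2.14 and EOMES at −0.38 ± 2.04. The death ligand gene TNFSF10 stood at 0.27 and IFNG at 0.50, FASLG had 4 counts, all in 15CP1, and TNF was at 0 in every library.

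Among receptor genes the NK receptor chain KLRD1 (CD94) was lowest at −3.12 ± 2.21 (edgeR adjusted p = 0.541), with 57 and 59 counts in 13EP12 and 13EP8 and 1 and 40 in 13EP5 and 15CP1. SLAMF7 had 189 of its 254 counts (74.4%) in 13EP5, close to the 74.8% of GZMB, and KLRG1 and CTSC had 53.0% and 60.7% there. Of the 24 pathway genes with at least 50 counts, 19 had their highest count in 15CP1, the deepest library, and 4 in 13EP5, with a median share of 29.6% in 13EP5.

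Levels of different genes can be compared only per length, for which the deposited table of fragments scaled to gene length and library size (FPKM) was used. In 15CP1, the only library with FPKM values above 0 for 9 of the 10 genes, GZMB stood at 13.6 FPKM, PRF1 at 11.3, CD8A at 4.67, CST7 at 2.25, NKG7 at 1.73, GZMA at 1.57, CD8B at 1.49, GNLY at 0.845 and GZMK at 0.651. GZMB and PRF1 were thus at nearly equal levels in 15CP1 (ratio 1.21). In 13EP5 GZMB was listed at 934 FPKM and PRF1 at 5.57, a ratio of 168. By counts, GZMB stood at 550 per 10 PRF1 counts in 13EP5 and at 11.5 per 10 in 15CP1. Only FPKM is scaled to length, so the FPKM and count ratios need not be equal in either library. The FPKM ratio was well above the count ratio in 13EP5 but close to it in 15CP1, and the reason for this difference between the libraries was not tested. The CD8A level in FPKM was 22.01% of the CD4 level in 13EP12, 16.9% in 13EP5 and 25.7% in 15CP1, and 99.1% in 13EP8, where CD4 stood at only 7.06 FPKM. The counts, not scaled to length, put CD8A well below CD4 in each, 13EP8 included. CD8A had 77 counts beside 338 of CD4 in 13EP12 and 14 beside 94 in 13EP8. It had 39 beside 772 in 13EP5 and 88 beside 766 in 15CP1.

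The FPKM table did not list all that was counted. Of 30 values of the 10 genes with over 3 counts, 14 were listed at 0 FPKM, GZMB of 13EP12 (90 counts) and GNLY of 13EP12 (60 counts) among them, against 4 of 40 such values of 8 housekeeping genes. The FPKM of 13EP5 were high for some genes: ACTB stood at 33487 FPKM and 6604 CPM there, against 3348 FPKM and 4532 CPM in 15CP1, but B2M stood at 7.79 FPKM and 35.6 CPM in 13EP5 against 15.3 FPKM and 48.0 CPM. In that table limma tested 3 members, GZMB (1.90 ± 1.80 on the log2(FPKM + 1) scale), PRF1 (0.32 ± 1.33) and CD8A (0.22 ± 1.43), and 0 had an unadjusted p under 0.05 against 0.281% of the genes in the table (adjusted p = 0.992 to 0.994). PRF1 and CD8A, which stood at −0.50 and −1.28 in the counts, had the opposite sign here. The median over all genes was 0.74 in this fit, against 0.16 in the counts, and both genes lay below the median in each.

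The genes whose level followed the summed granule counts most closely over the 10 libraries were EP400, a chromatin remodelling protein (Pearson r = 0.996), CNN2, a calponin that binds actin (0.993), CALM3, a calmodulin (0.990), SKIV2L2, an RNA helicase (0.985), and PITPNC1, a lipid transfer protein (0.980), among 7372 genes ranked. EP400 had 304 and 204 counts in 13EP12 and 13EP8, 41 in 15CP6, 971 in 13EP5, 1235 in 15CP1, 9 in 15CP4 and none in the other 4 libraries. The 10 points share their depth and which libraries were at 0, and 73 genes had an r above 0.9.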

How the data were processed

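Tr1 cells were sorted from 1 blood sample of each of 10 monkeys and sequenced as stranded Clontech Pico libraries. Per the labels and methods, the authors aligned reads to the human genome (hg38, HISAT2 2.0.2) and deposited raw counts per gene and, from Cuffdiff 2.2.1, FPKM values per gene. Counting options (strand, multi-mapping) are not given in the sources used here. Groups came from the titles, 1 library per monkey, 5 per cohort.

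Counts of genes with at least 10 counts in all (14168 genes) were fitted with edgeR 4.0.16 (TMM, quasi-likelihood, cohort as the only term, R 4.3.3), with p-values adjusted over all genes. Exact permutation tests used log2(CPM + 1) with TMM sizes. Deposited FPKM were tested with limma 3.58.1 on log2(FPKM + 1) over 10307 genes with a mean of at least 1. DESeq2 1.42.0 was an alternative. Scripts were checked on simulated data, whose counts had less spread between libraries (dispersion) than the 4.738 fitted here. The check does not give the size of change that these libraries could show. The authors' edgeR results were not used.

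The members, the pathway list and the marker lists were chosen with earlier results of these data known, and the plasmacytoid dendritic cell list after the counts of single libraries had been seen. All 10 members are named; pathway genes are given as counts, with values for those with at least 50 counts, and the 5 genes most alike were ranked by Pearson's r among genes with at least 100 counts and counts in at least 4 libraries. CPM values not marked as TMM were scaled by the library total. Counting intervals are 95% Clopper-Pearson, and 0 counts are given an upper level of 3 counts. All 10 members matched macaque RefSeq, used only for neighbouring genes. The gamma delta T cell markers TRDC, TRGC1 and TRGC2 were not among the 26484 genes counted, so this cell type could not be assessed. Marker lists that no result turned on are not reported here.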

Additional observations from a re-analysis of the deposited data

Results flagged for a closer look

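In 4 of the 17 combinations of a gene and a cohort that were examined, 1 monkey stood apart from the other 4 of its cohort, by a gap divided by the range above 0.710, Dixon's limit for 5 samples. In each of them the other 4 libraries were at 0, so the gap equals the whole range. Chance alone is taken to give such a flag in about 1 in 20 groups. That rate does not apply here, since a gene counted in only 1 monkey of a cohort is flagged whatever its level. In Cohort C, monkey 15CP1 stood apart for GZMA, at a log2(CPM + 1) of 1.41, for CST7, at 3.25, and for CD8B, at 1.41. GZMK set 13EP8 apart from the rest of Cohort B, at 3.23. 15CP1 was the deepest library and 13EP8 the deepest of Cohort B; the part of depth in these values was not tested.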

How the results depend on the processing

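No member passed an adjusted p under 0.05, or an unadjusted p under 0.01 with 1.5-fold, in any of the 23 alternative fits of the counts, and none did so in the 12 of the FPKM table or the 2 of the permutation test. One library left out at a time moved GZMB from −0.16 to 3.10, GZMK from −1.01 to 4.86, PRF1 from −2.65 to 0.83 and CD8A from −2.14 to 0.86 on the log2 scale, with a change of sign for GZMB without 13EP5, for GZMK without 13EP12, 15CP6 or 13EP5, and for PRF1 and CD8A without 13EP12. In the FPKM table it moved PRF1 from −0.26 to 1.27 and CD8A from −0.79 to 0.89. DESeq2 turned GZMK to −0.21, beside a median over all genes of −0.31 in that fit. Over the fits of the counts this median ranged from −0.58 to 0.83, and the signs above were not taken relative to it. The cause of the sign changes was not tested, beyond the libraries named. GNLY, NKG7, CST7 and CD8B were negative in all 22 alternative fits of the counts that tested them. In the FPKM table, with every value above 0 kept, GNLY stood at 0.18, NKG7 at 0.29 and CST7 at 0.34, and CD8B at −0.13. The median over all genes was 0.43 in that fit, above each of these values. The filterByExpr filter left GZMB alone of the members. Over all genes, 911 were called at p under 0.01 and 1.5-fold, and between 0 (replicate block) and 1525 (RLE size factors) under the alternatives; at an adjusted p under 0.05 the count was 0, and at most 2 (DESeq2).

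Replicate numbers name different monkeys, and same-numbered libraries deviated with correlations of 0.38, −0.29, 0.02, −0.43 and −0.04, so the numbers were not taken as pairs, and no library correlated best with its own number. With the replicate block GZMB stood at 2.56 and CD8B at −4.43, and no call changed. Depth limits these results: of the 40 zeros in the 6 shallower libraries, only 13 would have been above 3 counts at the level of the other 4.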
